A study of Mus musculus with 2 samples.

Results

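Interferon signalling and the genes that interferon induces were described by 40 genes, named by symbol and each found as a row among the 23284 gene symbols of both libraries. Of these, 13 are parts of the signalling chain (4 receptor chains, 3 kinases, 5 transcription factors and 1 inhibitor) and 27 are genes that interferon induces. The members were chosen by their known roles, but with earlier results of these data known. The study searched for genes related to metastasis in mouse melanoma cells and compared B16/BL6 cells, an invasive subline, with B16 cells, the melanoma line of C57BL/6 origin from which it was derived. B16/BL6 cells were grown in RPMI and B16 cells in DMEM, both with the same shares of serum and antibiotics, and the labels name no interferon or other agent for either line. Each line is represented by 1 library. The values therefore carry no replicate error, differences between the lines are given without a statistical test, and the line and its medium cannot be told apart. Values are FPKM, in which fragment numbers are divided by transcript length and library size, so that levels can be compared between genes.

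Interferons are secreted proteins, released by many cell types on sensing viral nucleic acid (type I) or by activated lymphocytes (interferon-gamma). Type I interferons bind a receptor made of Ifnar1 and Ifnar2 and interferon-gamma binds a receptor made of Ifngr1 and Ifngr2. The receptors' kinases then activate STAT and IRF transcription factors, which switch on a large set of antiviral and immune genes through short promoter elements. In melanoma, this response is known for its part in antigen presentation and in the growth control that interferon exerts.

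Both cultures carried the melanocyte programme that their labels call for. The 6 melanocyte markers (Mitf, Mlana, Pmel, Dct, Tyrp1 and Sox10) ranged from 90.7 to 6160 FPKM in B16/BL6 and from 97.0 to 3790 FPKM in B16. The 9 leukocyte markers summed to 5.83 FPKM in B16/BL6 and 5.76 FPKM in B16, most of it from Lyz2 (3.96 FPKM in B16/BL6 and 2.56 FPKM in B16) and Cd68 (1.23 FPKM in B16/BL6 and 2.83 FPKM in B16). The defining leukocyte gene Ptprc stood at 0.0814 FPKM in B16/BL6 and 0.018 FPKM in B16, and Cd3e and Siglech were listed at 0 in both. Among 6 fibroblast and endothelial markers, Col3a1, Dcn, Lum and Cdh5 were listed at 0 in both libraries, Pecam1 at 0 in B16/BL6 and 0.0298 FPKM in B16, and Col1a1 at 0.11 FPKM in B16/BL6 and 0.161 FPKM in B16. A listing of 0 need not mean that no RNA was made, since the ribosomal protein gene Rpl26 was listed at 0 in both libraries and Rpl11 at 0 in B16.

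No interferon transcript was listed above 0 in either line. All 21 interferon genes examined, among them Ifnb1, the alpha-interferon genes, Ifng, Ifnk, Ifne and the lambda-interferon genes Il28a and Il28b, were listed at 0 in both B16/BL6 and B16. The receptors and kinases that would receive interferon were present in both lines.

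All 4 receptor chains reached 1 FPKM in each library, at 11.7 to 36.8 FPKM in B16/BL6 and 7.95 to 36.2 FPKM in B16. Ifnar1, the chain on which Tyk2 sits, stood at 12.3 FPKM in B16/BL6 and 9.77 FPKM in B16. Its partner Ifnar2 stood at 35.5 FPKM in B16/BL6 and 32.2 FPKM in B16. The ligand-binding chain of the interferon-gamma receptor, Ifngr1, had the largest difference of the 4 as deposited, at 11.7 FPKM in B16/BL6 and 7.95 FPKM in B16, a log2 difference of 0.51 (here and below, the B16/BL6 value of log2(FPKM + 1) less the B16 value). Ifngr1 lies on chromosome 10, where the 528 genes considered had a median difference of 0.41. Once the median of each chromosome was subtracted, Ifngr1 was at 0.09, below Ifnar1 at 0.35 and Ifnar2 at 0.18. The accessory chain Ifngr2 stood at 36.8 FPKM in B16/BL6 and 36.2 FPKM in B16. All 4 were thus higher in B16/BL6 as deposited, by small amounts, but Ifnar2 and Ifngr2 were lower in B16/BL6 when each library was rescaled to a sum of 1000000 (the TPM scale), and Ifngr2 also after upper-quartile scaling. As deposited, 49.4% of all genes above 0 in at least 1 library were higher in B16/BL6. Ifnar1, Ifnar2 and Ifngr2 lie together within 191 kb of chromosome 16.

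The 3 kinases were lower in B16/BL6, under each of these scalings and within 2-fold. Among all genes above 0 in at least 1 library, 50.6% were lower as deposited and 63.6% on the TPM scale. Jak1, which serves both the type I and the interferon-gamma receptor, stood at 21.2 FPKM in B16/BL6 and 29.0 FPKM in B16, a difference of -0.43. Tyk2, the second kinase of the type I receptor, stood at 7.68 FPKM in B16/BL6 and 10.2 FPKM in B16. Jak2, the second kinase of the interferon-gamma receptor, was nearly level at 7.10 FPKM in B16/BL6 and 7.29 FPKM in B16, and its difference of -0.03 turned to 0.01 with the chromosome median subtracted.

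The transcription factors divided. Irf3, which is made constitutively and is activated by phosphorylation after nucleic acid sensing, stood at 21.6 FPKM in B16/BL6 and 17.0 FPKM in B16. Stat2, a subunit of the ISGF3 complex that type I interferon activates, stood at 1.59 FPKM in B16/BL6 and 1.13 FPKM in B16. Both were higher in B16/BL6 as deposited. Stat2 is on chromosome 10 like Ifngr1, and its difference of 0.28 turned to -0.13 once the median of that chromosome was subtracted. The other 3 factors were lower in B16/BL6. Irf9, the DNA-binding subunit of ISGF3, stood at 1.35 FPKM in B16/BL6 and 2.26 FPKM in B16, a difference of -0.47. Irf1, a target of interferon-gamma signalling, stood at 8.55 FPKM in B16/BL6 and 12.2 FPKM in B16, likewise a difference of -0.47. Irf7, the amplifier of alpha-interferon production, was under 1 FPKM in both lines, at 0.158 FPKM in B16/BL6 and 0.64 FPKM in B16. Socs1, the feedback inhibitor of JAK kinases, stood at 1.38 FPKM in B16/BL6 and 1.25 FPKM in B16, and changed side on the TPM scale.

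A gene was considered for a 2-fold difference where it reached 1 FPKM in at least 1 library, as 10709 genes did. Of the 13 signalling genes 12 passed this minimum (Irf7 did not), and 0 were 2-fold higher and 0 were 2-fold lower in B16/BL6. Over all genes considered, 3.31% were 2-fold higher and 3.16% were 2-fold lower (354 and 338 genes, or 369 and 583 of 11257 genes on the TPM scale). The differences of the 12 signalling genes ran from -0.47 to 0.51 with a median of 0.05, beside 0.01 for all genes considered. On the TPM scale the median of all genes moved to -0.16 and that of the signalling genes to -0.14.

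**Figure D1:**
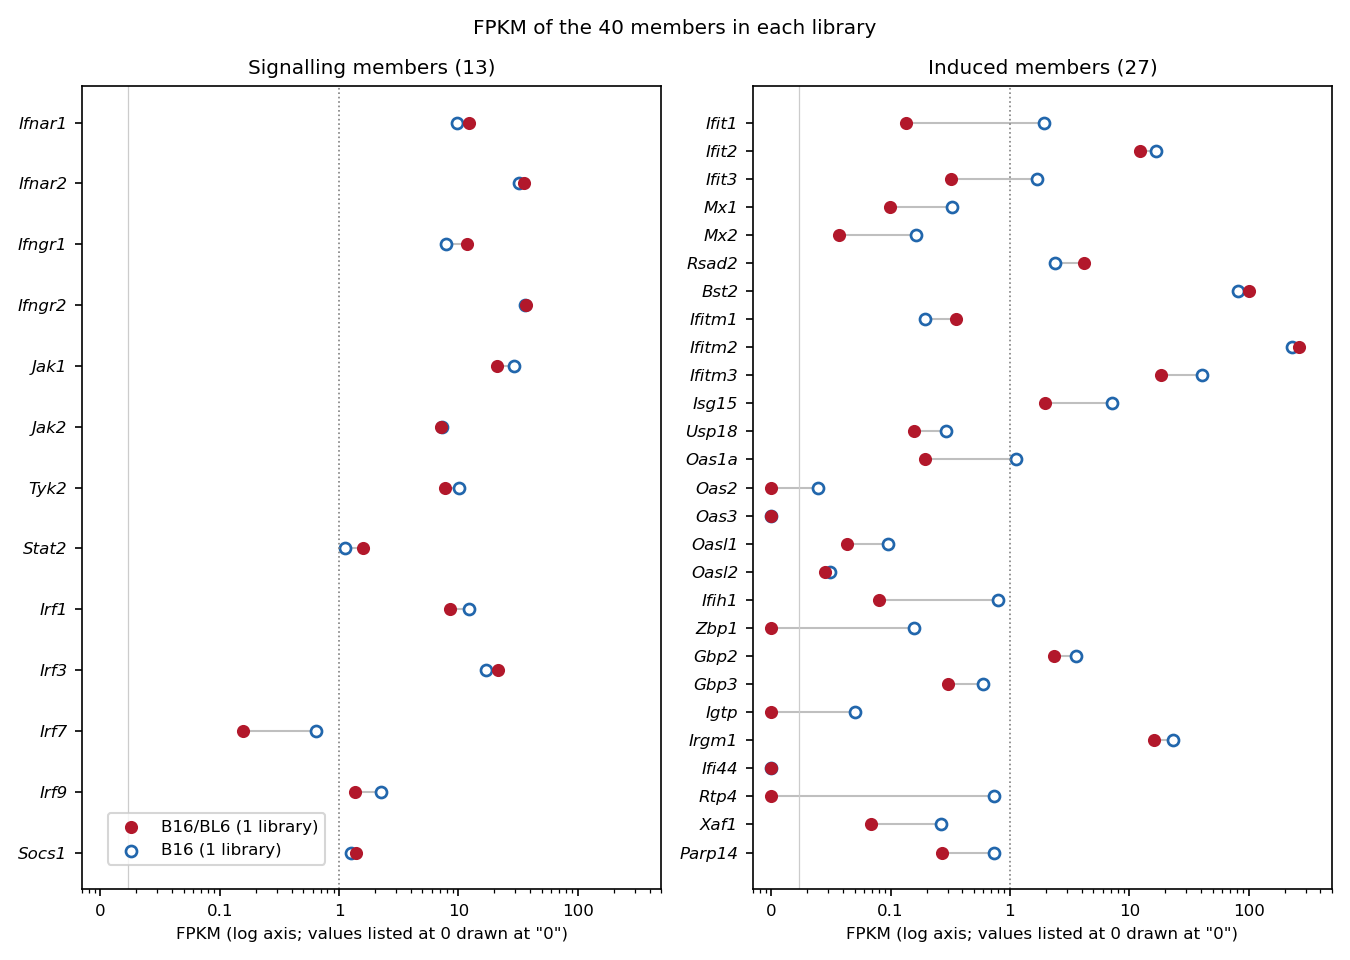
FPKM of each of the 13 signalling members (left) and 27 induced members (right) in B16/BL6 (filled red) and B16 (open blue), 1 library each, on a log axis with values listed at 0 drawn at the mark "0"; the dotted line is 1 FPKM. The signalling pairs lie close together apart from Irf7, and in most induced pairs the B16/BL6 point lies left of the B16 point, while Ifitm2 and Bst2 are the highest in both lines.

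Of the 27 induced genes, 16 were under 1 FPKM in both lines, as were 12575 of all 23284 listed genes. The induced genes at 1 FPKM or more numbered 8 in B16/BL6 and 11 in B16, beside 10367 and 10413 of all genes. The median member stood at 0.158 FPKM in B16/BL6 and 0.73 FPKM in B16, beside 0.188 FPKM and 0.202 FPKM for all genes. Ifitm2 and Bst2 alone made up 86.5% of the summed FPKM of the 27 genes in B16/BL6 and 75.4% in B16. The sums were alike (421 FPKM in B16/BL6 and 417 FPKM in B16), but without Ifitm2 and Bst2 they were 57.0 FPKM in B16/BL6 and 103 FPKM in B16. Both genes left out were higher in B16/BL6, and most of what remains came from Ifitm3, Irgm1 and Ifit2.

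Of the 27 induced genes 11 passed the 1 FPKM minimum. In B16/BL6, 4 of these 11 were 2-fold lower and 0 were 2-fold higher, beside the 3.16% and 3.31% of all genes considered. Ifit1, Ifit3 and Oas1a passed the minimum only through their B16 value, so the 11 were not selected evenly. Their median difference was -0.51, and over all 27 without a minimum it was -0.24. A lower value in a culture can come from fewer cells that express a gene or from less RNA in each cell, and these cannot be told apart. The 4 lower genes were Isg15, Ifit1, Ifit3 and Ifitm3.

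Isg15 encodes a ubiquitin-like protein that is attached to other proteins during the interferon response. It lies on chromosome 4 (156199424 to 156200818, mm10 as for all positions here) and stood at 1.95 FPKM in B16/BL6 and 7.11 FPKM in B16, a difference of -1.46 that 1.44% of all genes considered reached or passed downward. By an approximate conversion to fragments, these values rested on about 16 fragments in B16/BL6 and 54 in B16. Usp18, which removes Isg15 from proteins and also blocks the type I receptor, was under 1 FPKM, at 0.158 FPKM in B16/BL6 and 0.29 FPKM in B16. Its values rested on about 3 fragments in B16/BL6 and 5 in B16, too few to fix a difference.

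The Ifit genes encode cytoplasmic proteins that bind viral RNA and restrain translation. Ifit1 (chromosome 19, 34640889 to 34650009) stood at 0.135 FPKM in B16/BL6 and 1.94 FPKM in B16, a difference of -1.37, and Ifit3 (chromosome 19, 34583119 to 34588982) at 0.321 FPKM in B16/BL6 and 1.67 FPKM in B16, a difference of -1.02. These values rested on about 4 fragments in B16/BL6 and 52 in B16 for Ifit1, and on about 6 in B16/BL6 and 29 in B16 for Ifit3, so the size of the ratio is poorly fixed. Their neighbour Ifit2 did not follow them in size. It stood at 12.2 FPKM in B16/BL6 and 16.7 FPKM in B16, a difference of -0.42, although Ifit2, Ifit3 and Ifit1 lie within 99.5 kb. A further neighbour that is a close copy of Ifit3, Ifit3b (listed as I830012O16Rik), stood at 0.0455 FPKM in B16/BL6 and 0.351 FPKM in B16. The sources used here do not say how reads shared by such copies were divided, so the split between Ifit3 and Ifit3b is uncertain.

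The Ifitm genes encode small membrane proteins that block the entry of viruses. Ifitm3 (chromosome 7, 141009590 to 141010744) stood at 18.3 FPKM in B16/BL6 and 40.6 FPKM in B16, a difference of -1.11, on about 138 fragments in B16/BL6 and 276 in B16. Ifitm2, within the same 55.9 kb, was the most abundant of the 40 genes in both lines, at 263 FPKM in B16/BL6 and 232 FPKM in B16. Ifitm2 was above 98.7% of all listed genes in each library. Ifitm1, the remaining member of the cluster, was under 1 FPKM, at 0.351 FPKM in B16/BL6 and 0.194 FPKM in B16. The 3 neighbours thus differed in level over a wide range and, as deposited, in the direction of their difference. Ifitm1 rested on about 3 fragments in B16/BL6 and 2 in B16, and the difference of Ifitm2 was 0.01 on the TPM scale. The 3 genes also share sequence, and the division of shared reads is not known.

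A few other antiviral effectors went the other way. Bst2, the tethering protein that holds budding virus on the cell, stood at 101 FPKM in B16/BL6 and 82.0 FPKM in B16. Rsad2, the gene of viperin, an enzyme that makes a chain-terminating nucleotide, stood at 4.18 FPKM in B16/BL6 and 2.38 FPKM in B16, a difference of 0.61 and the highest among the induced genes. Rsad2, Bst2, Ifitm1 and Ifitm2 were the 4 induced genes that were higher in B16/BL6, and they stayed higher on the TPM scale and after upper-quartile scaling. Ifitm2 was nearly level on the TPM scale, at 0.01, and Ifitm1 rested on few fragments. The influenza resistance genes Mx1 and Mx2, whose products are defective in many laboratory strains, were under 1 FPKM, with Mx1 at 0.0989 FPKM in B16/BL6 and 0.327 FPKM in B16 and Mx2 at 0.0371 FPKM in B16/BL6 and 0.164 FPKM in B16.

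The Oas family, whose enzymes make the second messenger that activates RNase L, was almost silent. Oas1a was the only one of its 5 genes here to reach 1 FPKM, and only in B16: it stood at 0.195 FPKM in B16/BL6 and 1.13 FPKM in B16, a difference of -0.83 on about 4 fragments in B16/BL6 and 21 in B16. It was past 2-fold with a pseudocount of 0.1 (-2.06) and on the TPM scale (-1.28). Oas2 was listed at 0 in B16/BL6 and at 0.0248 FPKM in B16, and Oas3 at 0 in both. Of the OAS-like genes, Oasl1 stood at 0.0428 FPKM in B16/BL6 and 0.0945 FPKM in B16 and Oasl2 at 0.028 FPKM in B16/BL6 and 0.0309 FPKM in B16. The lowest values moved in steps of whole fragments, and the ratios of these Oasl pairs were those of 1 fragment in B16/BL6 against 2 in B16 for Oasl1 and 1 against 1 for Oasl2, or multiples of these.

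The 4 members that encode GTPases induced by interferon-gamma, which attack the vacuoles of intracellular microbes, each had a lower FPKM in B16/BL6. Of all genes above 0 in at least 1 library, 50.6% were lower as deposited and 63.6% on the TPM scale. Irgm1 and Gbp2 passed the minimum and were within 2-fold. Irgm1, a regulator of this family and of autophagy, stood at 16 FPKM in B16/BL6 and 23.1 FPKM in B16, a difference of -0.51. Gbp2, a guanylate-binding protein gene, stood at 2.34 FPKM in B16/BL6 and 3.59 FPKM in B16, a difference of -0.46. Below the minimum, its neighbour Gbp3 stood at 0.304 FPKM in B16/BL6 and 0.596 FPKM in B16, and Igtp was listed at 0 in B16/BL6 and at 0.0499 FPKM in B16. Gbp3 rested on about 9 fragments in B16/BL6 and 16 in B16, and Igtp on about 1 in B16.

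Both nucleic acid sensors among the members were low. Ifih1, the gene of the double-stranded RNA sensor MDA5, stood at 0.0795 FPKM in B16/BL6 and 0.801 FPKM in B16, a difference of -0.74, on about 5 fragments in B16/BL6 and 44 in B16. It missed the 1 FPKM minimum. On the TPM scale it passed the minimum, only through its B16 value, and 2-fold (-1.19). Zbp1, a sensor of left-handed nucleic acid that can start necroptosis, was listed at 0 in B16/BL6 and at 0.158 FPKM in B16. The remaining induced genes were under 1 FPKM in both lines. Rtp4, which encodes a transmembrane chaperone of receptors, was listed at 0 in B16/BL6 and at 0.73 FPKM in B16, and was likewise past the minimum and 2-fold on the TPM scale (-1.30). Parp14, an ADP-ribosyltransferase gene, stood at 0.268 FPKM in B16/BL6 and 0.733 FPKM in B16, and Xaf1, which encodes an antagonist of the apoptosis inhibitor XIAP, at 0.0687 FPKM in B16/BL6 and 0.265 FPKM in B16. Ifi44 was listed at 0 in both.

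The induced genes that did not reach 1 FPKM leaned to the same side. There were 16 of them, and 2 (Oas3 and Ifi44) were listed at 0 in both libraries. Of the other 14, 13 had a lower FPKM in B16/BL6 and 1 (Ifitm1) a higher one, at any size of difference. The count was also 13 on the TPM scale and after upper-quartile scaling. The 13 include Oasl2, whose ratio equals that of 1 fragment in each library. Among all 3224 genes that were under 1 FPKM in both libraries and above 0 in at least 1, 54.3% had a lower FPKM in B16/BL6, and 56.4% on the TPM scale. Over all 27 induced genes 21 were lower and 4 higher, and over all 13933 genes above 0 in at least 1 library 50.6% were lower and 49.4% higher. On the TPM scale 63.6% of all genes were lower, and the induced genes again numbered 21 lower and 4 higher. Most of the values under 1 FPKM rest on few fragments, and the genes share regulators, so they are not independent of one another.

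**Figure D2:**
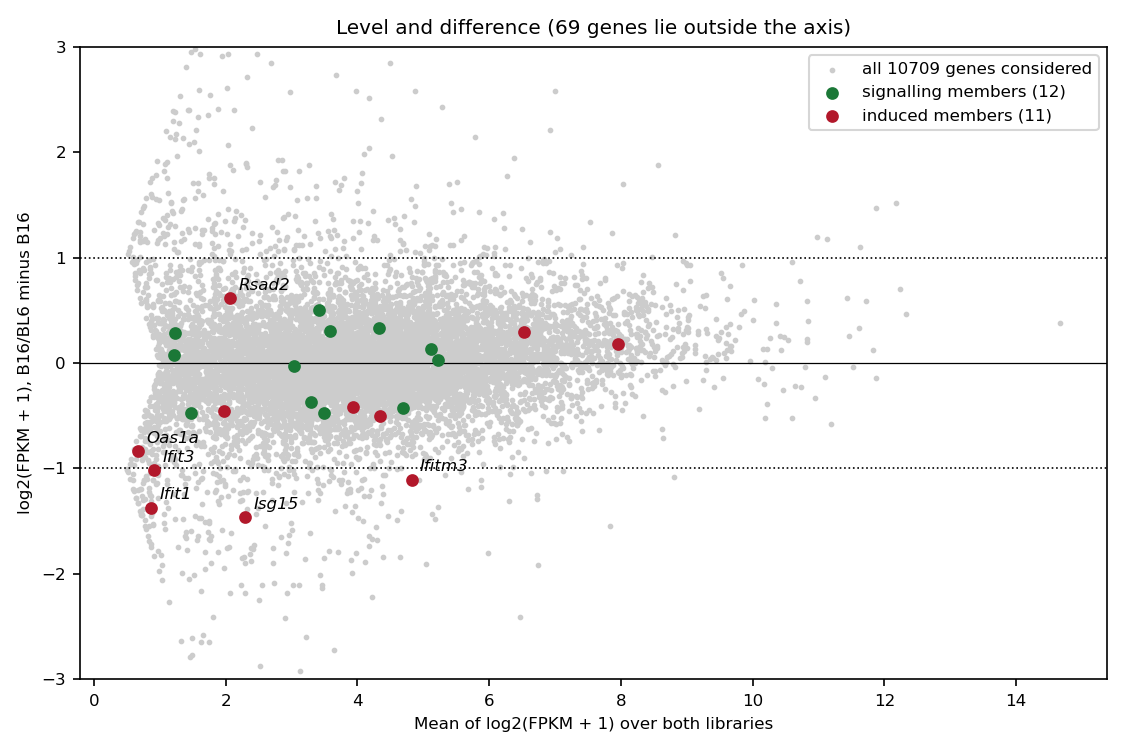
Difference between the lines (vertical, log2(FPKM + 1) in B16/BL6 minus B16) against the mean level over both libraries for the 10709 genes considered (grey), the 12 signalling members (green) and the 11 induced members (red) that passed the 1 FPKM minimum; dotted lines mark 2-fold and 69 genes lie outside the axis. Isg15, Ifit1, Ifitm3 and Ifit3 lie below the lower line, Rsad2 is the highest induced gene at 0.61, and the green points stay between -0.47 and 0.51.

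Interferon acts through known promoter elements, and the letters of these were looked up in the members. RefSeq windows of 300 bases (250 before and 50 after an annotated start, GRCm38.p6, the assembly that mm10 names) were at hand for 33 of the 40 genes. That start need not be the outer end of the gene's listed position. They were searched on both strands for GAAA followed after any 2 bases by a further GAAA, the core that interferon-regulatory factors bind in the interferon-stimulated response element, with overlapping matches counted. At least 1 match was found for 14 of 20 induced genes and 2 of 13 signalling genes (Stat2 and Socs1), beside 3.99% of 27025 genes with a window. The looser pattern of TTC, any 3 bases and GAA, the letters of a gamma-activated site, matched 5 of 20 induced genes, 3 of 13 signalling genes and 9.55% of all genes, and in Bst2 and Ifitm3 such a match overlapped the first motif. A match is a description of the letters and not a measured binding site. The windows of the 4 genes that were 2-fold lower in B16/BL6 are printed first, then those of 3 genes with the motif that were higher in B16/BL6, each 5′ to 3′ on the strand of the gene with the matches of the response element core, in either orientation, in capitals.
Isg15 (chr4:156200769-156201068, minus strand): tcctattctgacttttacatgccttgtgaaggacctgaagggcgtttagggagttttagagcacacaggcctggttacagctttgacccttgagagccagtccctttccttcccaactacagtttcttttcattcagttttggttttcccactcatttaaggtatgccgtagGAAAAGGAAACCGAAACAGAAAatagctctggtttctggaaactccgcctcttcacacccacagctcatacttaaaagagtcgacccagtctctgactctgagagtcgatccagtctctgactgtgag
Ifit1 (chr19:34640639-34640938, plus strand): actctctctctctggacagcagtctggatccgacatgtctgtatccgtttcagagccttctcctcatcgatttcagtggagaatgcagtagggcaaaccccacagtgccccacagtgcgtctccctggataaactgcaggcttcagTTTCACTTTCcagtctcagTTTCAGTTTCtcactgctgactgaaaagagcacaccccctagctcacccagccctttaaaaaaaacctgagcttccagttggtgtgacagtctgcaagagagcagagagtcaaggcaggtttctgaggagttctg
Ifit3 (chr19:34583279-34583578, plus strand): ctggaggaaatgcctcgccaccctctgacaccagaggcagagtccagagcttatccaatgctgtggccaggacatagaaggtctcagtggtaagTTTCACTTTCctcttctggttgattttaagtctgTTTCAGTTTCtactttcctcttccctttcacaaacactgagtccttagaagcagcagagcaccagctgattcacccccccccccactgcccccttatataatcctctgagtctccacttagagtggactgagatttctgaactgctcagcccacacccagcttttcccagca
Ifitm3 (chr7:141010695-141010994, minus strand): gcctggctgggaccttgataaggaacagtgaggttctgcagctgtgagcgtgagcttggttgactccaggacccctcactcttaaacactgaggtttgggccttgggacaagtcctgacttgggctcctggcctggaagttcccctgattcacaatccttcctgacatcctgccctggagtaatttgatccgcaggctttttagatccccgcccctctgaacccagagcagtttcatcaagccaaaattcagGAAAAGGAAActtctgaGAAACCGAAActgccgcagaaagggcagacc
Rsad2 (chr12:26456403-26456702, minus strand): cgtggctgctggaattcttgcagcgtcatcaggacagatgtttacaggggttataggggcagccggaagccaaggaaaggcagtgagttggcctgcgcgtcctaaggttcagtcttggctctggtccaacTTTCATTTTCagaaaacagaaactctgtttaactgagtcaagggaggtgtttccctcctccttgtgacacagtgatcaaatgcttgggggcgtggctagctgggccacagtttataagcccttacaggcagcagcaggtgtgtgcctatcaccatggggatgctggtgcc
Bst2 (chr8:71537423-71537722, minus strand): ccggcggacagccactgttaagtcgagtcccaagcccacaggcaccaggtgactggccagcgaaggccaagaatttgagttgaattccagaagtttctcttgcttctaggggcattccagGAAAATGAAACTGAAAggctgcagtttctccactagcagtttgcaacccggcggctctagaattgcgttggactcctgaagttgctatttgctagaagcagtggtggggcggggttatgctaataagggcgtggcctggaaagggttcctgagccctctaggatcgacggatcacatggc
Ifitm2 (chr7:140955912-140956211, minus strand): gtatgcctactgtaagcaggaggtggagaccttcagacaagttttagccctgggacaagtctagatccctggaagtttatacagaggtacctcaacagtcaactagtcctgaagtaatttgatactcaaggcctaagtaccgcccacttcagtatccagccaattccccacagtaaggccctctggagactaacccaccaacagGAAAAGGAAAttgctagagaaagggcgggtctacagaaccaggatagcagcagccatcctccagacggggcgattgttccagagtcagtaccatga
Isg15 held 3 overlapping matches whose first bases lie at positions -78, -72 and -66, counted from the start that the window uses. Ifit1 held 2 at -104 and -85 and Ifit3 held 2 at -156 and -122, in the reverse orientation. The windows of Ifit3 and Ifitm2 lie wholly inside the listed positions of these genes (Ifit3 from 34583119, Ifitm2 to 140959686 on the minus strand). Their matches are therefore not upstream of those outer ends. In Ifitm3 both matches lie just after the start, at positions 3 and 20. The 3 higher genes printed held 2 overlapping matches in Bst2 and 1 each in Ifitm2 and Rsad2. They were printed because they carry the motif, and Ifitm1, which was also higher, held no match. Whether the motif goes with the direction of the difference was not tested. Both windows of Ifit2, and those of Ifitm1, Ifi44, Oasl1, Oasl2 and Xaf1, held no match of these letters. The windows of Ifit2, Ifitm1, Oasl1 and Xaf1 are shifted into the gene's listed position. The sequence before that position was thus searched only in part, and for Ifitm1 not at all.

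**Figure D3:**
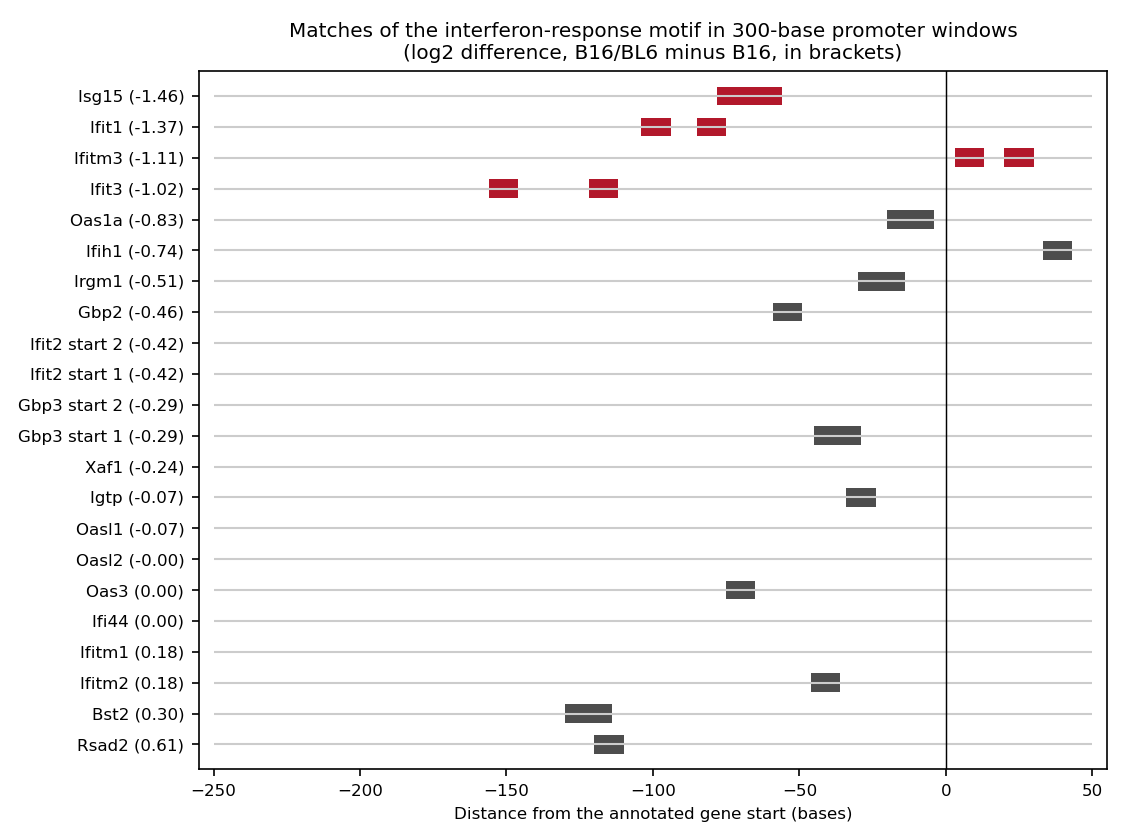
Positions of the response element core, on either strand, in the promoter windows of the 20 induced genes with a RefSeq window. Genes are ordered from the lowest to the highest difference (in brackets), with distance in bases from the start that each window uses. Red marks the 4 genes 2-fold lower in B16/BL6. Matches occur at both ends of the order, from Isg15 at -1.46 to Rsad2 at 0.61.

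Around the members, further genes of the pathway were examined from lists. Of 22 other genes of nucleic acid sensing and interferon signalling, 18 passed the minimum, 0 were 2-fold higher and 2 were 2-fold lower in B16/BL6, beside 3.31% and 3.16% of all genes considered, and their median difference was 0.11. The gene of the cytosolic DNA sensor cGAS (listed under its older symbol E330016A19Rik) stood at 0.693 FPKM in B16/BL6 and 4.28 FPKM in B16, a difference of -1.64, and passed the minimum only through its B16 value. Tmem173, the gene of STING, the receptor for the messenger that cGAS makes, stood at 12.7 FPKM in B16/BL6 and 31.3 FPKM in B16, a difference of -1.24 on about 323 fragments in B16/BL6 and 721 in B16. Tmem173 lies on chromosome 18, where the 269 genes considered had a median of -0.29, and its difference was -0.95 once the median of its chromosome was subtracted.

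The RIG-I-like sensors of viral RNA were low in both lines. Besides Ifih1, the RIG-I gene Ddx58 stood at 0.728 FPKM in B16/BL6 and 1.53 FPKM in B16, and Dhx58, the gene of their regulator LGP2, at 0.261 FPKM in B16/BL6 and 0.822 FPKM in B16. Tlr3, the gene of the endosomal sensor of double-stranded RNA, passed the minimum in both lines and was nearly level, at 2.53 FPKM in B16/BL6 and 2.86 FPKM in B16. Downstream of these sensors, Mavs and Tbk1 were higher in B16/BL6 and within 2-fold. Mavs, the mitochondrial adaptor gene, stood at 24.3 FPKM in B16/BL6 and 20.4 FPKM in B16, and Tbk1, the kinase gene that acts on Irf3, at 13.1 FPKM in B16/BL6 and 9.31 FPKM in B16. Ddx58, Dhx58, Tlr3, Mavs and Tbk1 were chosen for mention after their values were seen.

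Of 75 other interferon-induced genes 72 had a row, 34 passed the minimum, 0 were 2-fold higher and 1 was 2-fold lower, beside 3.31% and 3.16% of all genes considered, so the count was near that of all genes. That gene, which passed the minimum only through its B16 value, was Ifi47, an immunity-related GTPase gene of the same family as Irgm1 and Igtp, at 0.224 FPKM in B16/BL6 and 2.66 FPKM in B16, a difference of -1.58 on about 4 fragments in B16/BL6 and 47 in B16. The median difference of the 34 was -0.04, and 21 of them were below 0 and 13 above, so this wider list as a whole lay near the median of all genes. Of 55 above 0 in at least 1 library, 35 (63.6%) had a lower FPKM in B16/BL6 and 20 a higher one, beside 50.6% lower among all genes. On the TPM scale 70.9% of the list and 63.6% of all genes were lower. The list includes the protein kinase gene Eif2ak2, at 6.54 FPKM in B16/BL6 and 9.28 FPKM in B16, and the chemokine gene Cxcl10, at 26.5 FPKM in B16/BL6 and 26.7 FPKM in B16, both chosen for mention after their values were seen. The comparison of the induced members with this list rests on which genes each holds.

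**Figure D4:**
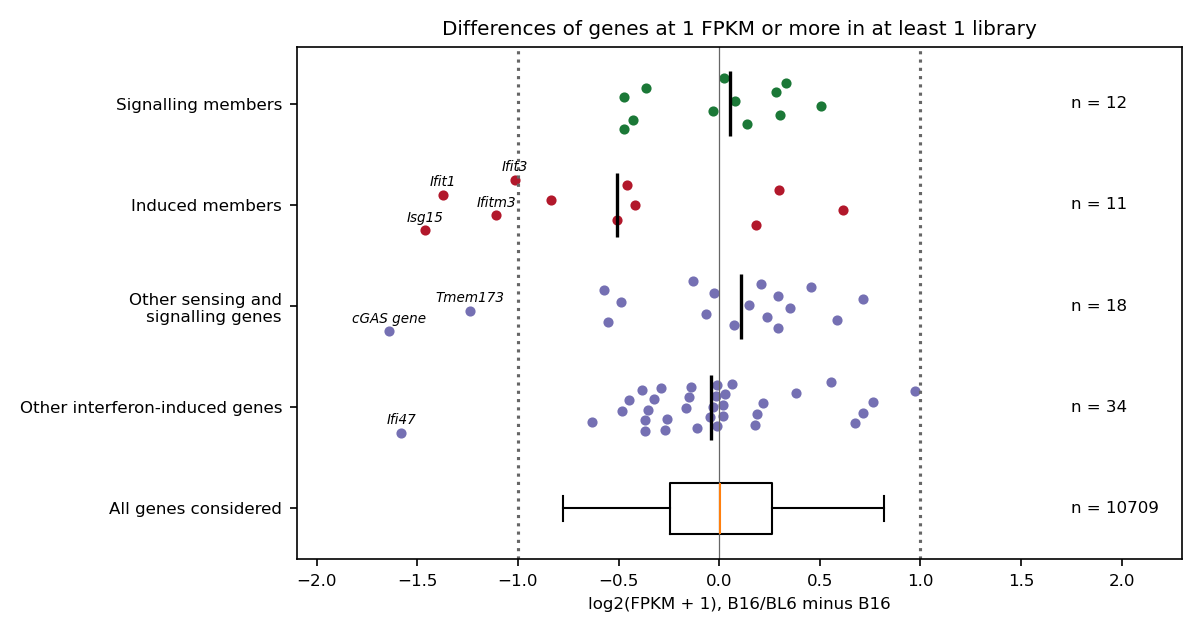
Differences (log2(FPKM + 1) in B16/BL6 minus B16) of the genes that passed the 1 FPKM minimum, for the signalling and induced members, the other lists of pathway genes and all genes considered; each point is a gene, black bars are list medians, dotted lines mark 2-fold, and the box of all genes spans the quartiles with whiskers at the 5th and 95th percentiles. The medians are 0.05 for signalling members, -0.51 for induced members, 0.11 for other sensing and signalling genes, -0.04 for other induced genes and 0.01 for all genes.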

How the data were processed

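Total RNA of 1 culture of B16/BL6 cells and 1 of B16 cells was made into stranded mRNA libraries, per the labels' protocols. The authors deposited FPKM values, 1 per gene symbol, per the file headers. The sources used here do not give the exact scaling, the annotation, the strand setting or the depth. The submitters' processing notes list Cufflinks 2.2.1, TopHat2 2.0.13, SAMtools 0.1.19 and Bowtie2 2.2.3, with mm10 as the genome build and no order of steps.

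The difference of log2(FPKM + 1) was computed (Python 3.11.15, pandas 2.3.3), which understates the change of low genes. FPKM is not a count and there was 1 library per line, so no statistical test was run. The calculation was tested on simulated data with changes planted only in genes at 5 FPKM or more in B16, so that test does not cover lower genes. The members and lists were chosen with earlier results of these data known. All 40 members were named, then the genes of each other list past 2-fold (up to 4 in each direction), and a few more after their values were seen. Of the listed genes, 12 were found under an older symbol through RefSeq names and 3 were not analysed here. A marker gene is not reported here.

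Depth is unknown. Among 379 genes above 0 and under 0.1 FPKM in both libraries, 86.8% had ratios that were whole-number ratios up to 5 times 0.906, within 0.5%, which puts B16/BL6 at 1.10 times the depth of B16. Genes under 0.2 FPKM with a single GENCODE M21 transcript over 1500 bases put the depths near 11.1 times 1000000 fragments in B16/BL6 and 10.0 times 1000000 in B16, taking estimates from 8 to 14 times 1000000 as those of 1 fragment. Each depth is the median of the estimates kept, so the chosen window bounds it and does not establish the true depth. The fragments behind a value were approximated from these depths and the longest transcript, with no interval, and are rough for the same reason. Positions are from RefSeq GRCm38.p6, which placed all 40 members.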

Additional observations from a re-analysis of the deposited data

How the results depend on the processing

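The 2-fold counts, medians and differences of single genes were recomputed under 8 alternatives: a pseudocount of 0.1 or 5, no minimum, a minimum of 1 FPKM on the mean of both libraries or of 5 FPKM in at least 1, the TPM scale, upper-quartile scaling, and chromosomes centred on their own medians. The signalling genes had 0 past 2-fold in either direction under all 8, and the induced members had 0 higher. Irf7, at 0.158 FPKM in B16/BL6 and 0.64 FPKM in B16, was counted only without a minimum (-0.50) and on the TPM scale (-0.83). Both used a pseudocount of 1, and its values rested on about 6 fragments in B16/BL6 and 21 in B16. The number of induced members 2-fold lower, 4 as reported, was 0 with a pseudocount of 5, 2 with a minimum of 5 FPKM (Isg15 and Ifitm3) and 7 on the TPM scale, where Oas1a, Ifih1 and Rtp4 joined. It was 3 with the minimum on the mean, which Ifit3 missed, and 3 with chromosomes centred, where Ifit3 was at -0.97. Library sums were 563451 FPKM in B16/BL6 and 500485 FPKM in B16, so values rise on the TPM scale. The pseudocount and minimum stayed at 1, and the induced members past the minimum went from 11 to 15 there. Oas1a, Ifih1 and Rtp4 passed it on that scale only through their B16 value, so they could only be called lower. With a pseudocount of 5, Isg15 was at -0.80, Ifit1 at -0.43, Ifit3 at -0.33, Ifitm3 at -0.97 and Ifi47 at -0.55, and that pseudocount by its construction shrinks genes of a few FPKM. The median of the induced members was -0.33 with a pseudocount of 5, -0.24 without a minimum, -0.74 on the TPM scale and -0.62 with chromosomes centred. That of the signalling members was -0.14 on the TPM scale. Other interferon-induced genes had 2 higher with a pseudocount of 0.1 (Tap1 and Tap2), 1 higher on the TPM scale and 1 with chromosomes centred (Tap2 in each), 0 lower with a pseudocount of 5 or a minimum of 5 FPKM, and 2 lower on the TPM scale. Other sensing and signalling genes, a count added after the values were seen, had 1 lower with a pseudocount of 5, a minimum of 5 FPKM or chromosomes centred. Over all genes, 511 were lower with a pseudocount of 0.1, 118 lower and 151 higher with a pseudocount of 5, 212 lower with a minimum of 5 FPKM and 583 lower on the TPM scale. Counts of genes lower or higher by any amount were recomputed on the TPM scale and after upper-quartile scaling, and summed FPKM, shares of the sum and motif counts under no alternative. Where no cause is named, the cause was not tested. No paired analysis was possible because each line has 1 library. Depth limits the genes under 1 FPKM, whose values rest on few fragments.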

Other observations

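Some interferon-induced genes outside the members went against the direction of Isg15 and Ifit1, and were chosen here after their values were seen. The antigen-processing genes Psmb9, Tap1, Psmb8 and Tap2 lie within 34.3 kb of chromosome 17 (34182030 to 34216321), and all 4 were higher in B16/BL6 at low levels. Of all genes above 0 in at least 1 library, 49.4% were higher as deposited. Tap1, a chain of the peptide transporter, stood at 1.26 FPKM in B16/BL6 and 0.33 FPKM in B16, and its partner Tap2 at 1.51 FPKM in B16/BL6 and 0.278 FPKM in B16. The immunoproteasome subunit genes Psmb8 and Psmb9 were at 0.243 and 0.137 FPKM in B16/BL6, on about 5 and 4 fragments. Both were listed at 0 in B16. Tapbp, which encodes a chaperone of the same peptide-loading step, went the other way at 16.8 FPKM in B16/BL6 and 26.6 FPKM in B16.

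The enzymes that attach Isg15 to proteins did not follow Isg15. Uba7, its activating enzyme gene, stood at 0.722 FPKM in B16/BL6 and 0.153 FPKM in B16. Ube2l6, the conjugating enzyme gene, stood at 12.1 FPKM in B16/BL6 and 7.22 FPKM in B16. Herc6, which encodes the main Isg15 ligase in the mouse, was nearly level at 7.44 FPKM in B16/BL6 and 7.32 FPKM in B16. Its ratio of 1.02 turns to the lower side on the TPM scale and after upper-quartile scaling, which divide B16/BL6 by 1.13 and 1.04. Trim25, a ligase gene of the RIG-I pathway, stood at 5.56 FPKM in B16/BL6 and 2.99 FPKM in B16. The lambda-interferon receptor gene, listed as Il28ra, was under 1 FPKM in both lines, at 0.41 FPKM in B16/BL6 and 0.0238 FPKM in B16. Its fragments were not approximated, and so low a value in B16 leaves the size of the ratio poorly fixed. The partner chain gene Il10rb stood at 63.9 FPKM in B16/BL6 and 52.1 FPKM in B16.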
